A study of Mus musculus with 14 samples.

Results

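The 9 genes described here code for the proteins of the creatine cycle and of the calcium cycle that have been linked to heat production without Ucp1, the uncoupling protein of brown fat. They were chosen by name: the creatine kinases Ckb, Ckmt1 and Ckmt2, the creatine synthesis enzymes Gatm and Gamt, the creatine transporter Slc6a8, the phosphatase Alpl, the calcium pump Atp2a2 and the calcium release channel Ryr2. This choice was made with earlier results of these data known. All 9 were found by symbol among the 38553 genes of each file. Gene values were FPKM (fragments scaled to transcript length and to the fragments mapped in the library) from poly(A) RNA of floating adipocytes, the fat cells that rise after collagenase digestion. The animals of every group were male mice on a C57BL/6 background, with no transgene or deletion named in the labels. They ate either a normal diet (regular chow) or a high-fat diet for 16 weeks from weaning at 3 weeks of age. Epididymal and inguinal adipocytes (the white depots) had 3 libraries per diet, and interscapular brown adipocytes had 1 library per diet. Each library pooled tissue of 3 to 5 mice, so that a library is a mean over animals. White tissue was digested for 20 min and brown tissue for 40 min, and digestion time and depot cannot be told apart between brown and white.

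In the creatine cycle, a creatine kinase transfers phosphate from ATP to creatine, and a phosphatase removes it again, so that ATP is spent and ADP is returned to the mitochondria without work being done. Alpl, the tissue-nonspecific alkaline phosphatase, and Ckb have been placed in this cycle in thermogenic fat, and Ckmt2 is the mitochondrial kinase of muscle and brown fat. In the calcium cycle, the SERCA pump moves calcium into the endoplasmic reticulum at the cost of ATP, and the ryanodine receptor lets it out again. White fat stores lipid and is not known mainly for heat, but these genes have been studied there in beige cells, the thermogenic cells of white depots.

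The results below turn on the brain-type kinase Ckb and on the synthesis enzymes Gatm and Gamt, which behaved differently across depots and diets, so the 250 bases before their RefSeq start (build GRCm38.p6, strand minus, written 5′ to 3′) are shown first. Capitals mark matches on either strand to the TATA box (TATAAA), to the CCAAT box, which is ATTGG on the other strand, and to the GC box GGGCGG, which reads CCGCCC there. These strings do not overlap each other in the windows shown.

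Ckb, chr12:111672339-111672588: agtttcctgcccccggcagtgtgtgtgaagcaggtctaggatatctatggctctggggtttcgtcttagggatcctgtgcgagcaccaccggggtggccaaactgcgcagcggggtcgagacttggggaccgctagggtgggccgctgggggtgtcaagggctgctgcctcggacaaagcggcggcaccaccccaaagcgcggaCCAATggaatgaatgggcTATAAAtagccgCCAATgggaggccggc

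Gamt, chr10:80261013-80261262: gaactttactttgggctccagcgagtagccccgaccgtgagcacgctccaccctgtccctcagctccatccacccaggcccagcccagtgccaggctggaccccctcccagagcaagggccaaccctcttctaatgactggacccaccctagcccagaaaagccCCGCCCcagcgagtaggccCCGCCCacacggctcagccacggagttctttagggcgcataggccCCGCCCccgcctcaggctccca

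Gatm, chr2:122611278-122611527: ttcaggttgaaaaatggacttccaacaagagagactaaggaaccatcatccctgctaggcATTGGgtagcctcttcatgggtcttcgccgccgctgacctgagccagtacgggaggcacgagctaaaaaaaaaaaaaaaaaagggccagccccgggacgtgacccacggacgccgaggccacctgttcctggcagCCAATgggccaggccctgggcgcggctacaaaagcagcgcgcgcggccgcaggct

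The Ckb window held TATAAA beginning 28 bases before the start, with CCAAT beginning 46 and 16 bases before it. The Gamt window held CCGCCC at 86, 67 and 22 bases before the start and no TATAAA, and the annotated gene reaches 80261025, so the last bases of this window lie within another Gamt transcript. The Gatm window held CCAAT at 55 and ATTGG at 190 bases before the start. Of all 32851 RefSeq promoter windows of this length, 12.37% held TATAAA, 33.85% held CCAAT and 32.74% held GGGCGG on either strand. AAGGTCA, the binding site of the estrogen-related receptors, was in 4.08% of all windows and in none of these 3. A promoter was matched for 7 of the 9 genes, and a match is a description of letters only.

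The libraries carried adipocyte transcripts throughout, with Adipoq between 919 and 2536 FPKM. Zic1, a brown adipocyte marker, was at 2.79 and 0.975 FPKM in the brown libraries and at 0.109 or lower in every white one. Replicates correlated at a Spearman rho of 0.950 to 0.979 over genes in 3 of the 4 white groups, but at 0.851 to 0.901 in the inguinal normal-diet group. In that group the 9 lymphocyte markers summed to 521 and 719 FPKM in replicates 0 and 2. They summed to 59.4 FPKM in replicate 1 and to at most 11.7 in any library of another group. Replicate 1 had the highest fibroblast (1711 FPKM) and neutrophil (64.8 FPKM) marker sums of the 14 libraries. Its adipocyte marker sum was 26320 FPKM, against 10260 and 14990 FPKM in replicates 0 and 2. The cause of the lower correlations was not tested. In the epididymal normal-diet replicate 2 the epididymis marker Crisp1 was at 38.3 FPKM, while the others of its list, Adam7, Lcn5 and Lcn8, were at 0. White groups were compared with limma on log2(FPKM + 0.5) over 14959 genes, a gene being called at a Benjamini-Hochberg adjusted p under 0.05. The FPKM files do not give read depth.

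Ckb, the cytosolic creatine kinase, was the most epididymal of the 9 genes and rose there on the high-fat diet. Its levels were 20.4, 26.1 and 33.9 FPKM in the epididymal libraries on the normal diet and 95.6, 92.1 and 60.7 FPKM in those on the high-fat diet. These groups did not overlap, and replicate 2 was the highest normal-diet and the lowest high-fat library. Inguinal libraries held 11.4, 12.4 and 15.0 FPKM on the normal diet and 9.24, 14.9 and 11.2 FPKM on the high-fat diet, which overlap. The brown libraries, at 10.1 and 13.1 FPKM, lay among the inguinal ones. The order of mean levels was epididymal high-fat (82.8 ± 19.2 FPKM, SD, n = 3), epididymal normal-diet (26.8 ± 6.78), and then the brown high-fat, inguinal normal-diet, inguinal high-fat and brown normal-diet groups, where each neighbour overlapped the next.

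The epididymal diet difference of Ckb was log2 1.61 (SE 0.25, limma adjusted p = 0.00081), or 3.05-fold on the log2(FPKM + 0.5) scale. In inguinal adipocytes it was log2 -0.15 (SE 0.25, adjusted p = 0.71). The difference between these diet effects was itself called, at log2 1.76 (SE 0.35, limma adjusted p = 0.013) (7.22% of all genes were called in that comparison). It was log2 1.71 with an adjusted p of 0.0517 when the inguinal normal-diet group was reduced to replicate 1, a variant chosen after seeing the data. On the high-fat diet Ckb was 6.78-fold higher in epididymal than in inguinal adipocytes (log2 2.76, SE 0.25, limma adjusted p = 0.00027). On the normal diet the same depot difference was log2 1.00 (SE 0.25, adjusted p = 0.035). That last call was lost without any 1 of 7 libraries (epididymal normal-diet 1 and 2, epididymal high-fat 0 and 1, inguinal normal-diet 0 and 2, inguinal high-fat 2), with limma adjusted p from 0.0518 to 0.132.

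**Figure D1:**
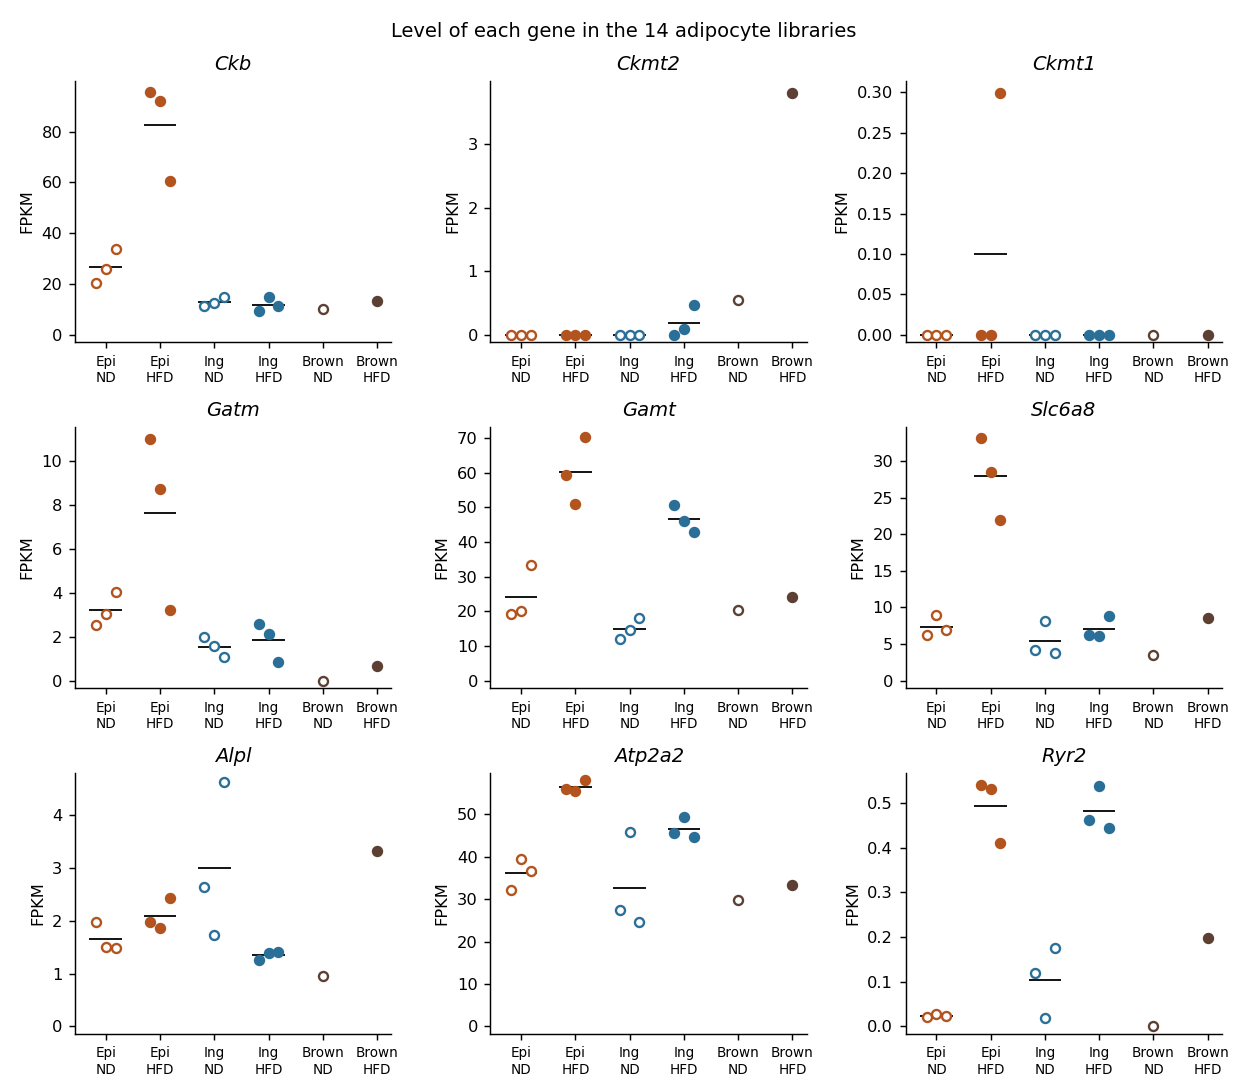
FPKM of each of the 9 genes in every library (points; open for normal diet, ND, and filled for high-fat diet, HFD), with the group mean as a line, for epididymal (Epi), inguinal (Ing) and brown adipocytes. The Ckb and Slc6a8 points of the epididymal high-fat group lie above those of every other group, Gamt is high in both white high-fat groups, and Ckmt2 reaches 3.80 FPKM only in the brown high-fat library.

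Slc6a8, which imports creatine through the plasma membrane, followed a similar pattern at lower levels. It stood at 6.21, 9.04 and 6.95 FPKM in epididymal adipocytes on the normal diet and at 33.2, 28.5 and 22.0 FPKM on the high-fat diet. Inguinal values were 4.18, 8.19 and 3.72 FPKM on the normal diet and 6.22, 6.08 and 8.80 FPKM on the high-fat diet. Only the epididymal high-fat libraries stood apart from the rest, and the inguinal groups overlapped. The epididymal diet difference was log2 1.84 (SE 0.29, limma adjusted p = 0.00082; 3.59-fold on the log scale). The inguinal difference was log2 0.42 (SE 0.29, adjusted p = 0.32). The difference between the diet effects was log2 1.42 (SE 0.40) and missed the threshold (limma adjusted p = 0.055). It passed without inguinal normal-diet replicate 1 (log2 1.10, adjusted p = 0.0385) or replicate 2 (log2 1.62, adjusted p = 0.0377), and with that group reduced to replicate 1 (log2 2.07, adjusted p = 0.0152). Without inguinal normal-diet replicate 1, which was the highest of its group, the inguinal diet difference also passed, at log2 0.74 (adjusted p = 0.0374), while reducing the group to that replicate turned it to log2 -0.22 (adjusted p = 0.74). On the high-fat diet Slc6a8 was 3.77-fold higher in epididymal than in inguinal adipocytes (log2 1.91, SE 0.29, limma adjusted p = 0.002), and on the normal diet the difference was log2 0.49 (adjusted p = 0.32).

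Markers of macrophages moved with these genes in epididymal adipocytes. The 8 macrophage markers summed to 371, 601 and 335 FPKM in the epididymal normal-diet libraries. In the epididymal high-fat ones they summed to 1780, 1680 and 987 FPKM. Among these high-fat libraries replicate 2 was the lowest, as it was for Ckb, Slc6a8 and Gatm. Among the normal-diet ones replicate 2 was also the lowest in markers, but the highest for Ckb (33.9 FPKM) and Gatm (4.04 FPKM). Slc6a8 and the marker sum were both highest in normal-diet replicate 1. In inguinal libraries the sum was 139 to 262 FPKM on the normal diet and 182 to 300 FPKM on the high-fat diet, and in brown libraries 23.7 and 137 FPKM. In the epididymal diet comparison 5 of the 8 markers were called higher, beside 12.2% of all genes, and none lower, with Adgre1 at log2 2.55 and Cd68 at log2 3.19. In the inguinal one 2 of the 8 were called higher, Cd68 (log2 1.26) and Trem2 (log2 2.03), beside 9.3% of all genes. Ckb, Slc6a8 and Gatm were not called there. Endothelial markers went the other way, from 374 to 425 FPKM down to 36.6 to 66.6 FPKM in epididymal adipocytes, with 7 of 8 called lower, beside 7.35% of all genes. The part of these cells in the levels of Ckb, Slc6a8 and Gatm was not tested. In such bulk libraries fewer cells of a type and less RNA per cell cannot be told apart.

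**Figure D2:**
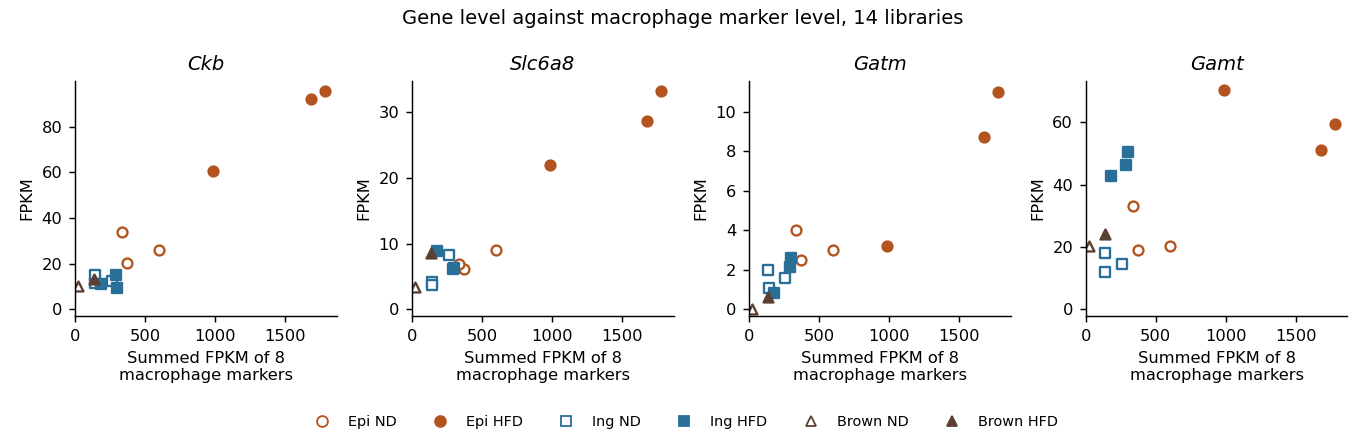
FPKM of Ckb, Slc6a8, Gatm and Gamt (y axis) against the summed FPKM of 8 macrophage markers (x axis) in each of the 14 libraries, by depot and diet. The 3 epididymal high-fat libraries (987 to 1780 FPKM of markers) lie apart, with Ckb at 60.7 to 95.6 FPKM, while Gamt reaches 42.9 to 50.5 FPKM in inguinal high-fat libraries whose marker sums are 182 to 300 FPKM.

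Gamt, which methylates guanidinoacetate to creatine in the last step of synthesis, rose with the high-fat diet in both white depots. It was at 19.2, 20.2 and 33.3 FPKM in epididymal normal-diet libraries and at 59.4, 51.0 and 70.3 FPKM in high-fat ones. Inguinal values went from 12.1, 14.6 and 18.1 FPKM to 50.5, 46.1 and 42.9 FPKM. In neither depot did the diet groups overlap. The differences were log2 1.33 (SE 0.23, limma adjusted p = 0.0016) in epididymal and log2 1.62 (SE 0.23, limma adjusted p = 0.001) in inguinal adipocytes, and they differed from each other by log2 -0.29 (SE 0.32, adjusted p = 0.66). With the inguinal normal-diet group reduced to replicate 1 the inguinal difference was log2 1.63 (adjusted p = 0.0132). Gamt was the 1 gene of the 7 tested that was called in inguinal adipocytes, where 9.3% of all genes were called higher. The normal-diet and high-fat brown libraries, at 20.4 and 24.1 FPKM, lay within the range of the epididymal normal-diet group.

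Gatm, which makes guanidinoacetate from arginine and glycine in the first step, was lower and less regular. Its epididymal values were 2.52, 3.02 and 4.04 FPKM on the normal diet and 11.0, 8.71 and 3.21 FPKM on the high-fat diet, where replicate 2 fell among the normal-diet libraries. The epididymal diet difference was log2 1.01 (SE 0.43) and missed the threshold (limma adjusted p = 0.12), and without high-fat replicate 2 it was log2 1.50 (adjusted p = 0.023). Inguinal libraries held 2.00, 1.58 and 1.08 FPKM on the normal diet and 2.58, 2.13 and 0.844 FPKM on the high-fat diet, which overlap (log2 0.14, adjusted p = 0.85). On the high-fat diet Gatm was called higher in epididymal than in inguinal adipocytes (log2 1.73, SE 0.43, limma adjusted p = 0.023). This call was lost without epididymal high-fat replicate 0 or 1 or inguinal high-fat replicate 2 (adjusted p from 0.102 to 0.114), and also with no filter on low values (0.0543), with libraries scaled to equal coding sums (0.0562) and with only the groups compared in the fit (0.0582). Gatm was listed at 0 in the brown normal-diet library and at 0.648 FPKM in the brown high-fat one. The ratio of Gamt to Gatm, both per length, ran from 6.67 to 8.23 in epididymal normal-diet, 5.40 to 21.9 in epididymal high-fat, 6.04 to 16.8 in inguinal normal-diet and 19.5 to 50.8 in inguinal high-fat libraries, and was 37.2 in the brown high-fat one. The inguinal diet groups did not overlap, and the epididymal high-fat range spanned that of the epididymal normal-diet group and met that of the inguinal high-fat one.

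The creatine kinase pool of white adipocytes was almost wholly Ckb. Its share of the summed FPKM of Ckb, Ckm, Ckmt1 and Ckmt2 was 100% in all normal-diet white libraries, at least 99.5% in the epididymal high-fat ones and at least 91.2% in the inguinal high-fat ones. Ckmt1, the ubiquitous mitochondrial kinase, was listed above 0 in a single library, at 0.299 FPKM in epididymal high-fat replicate 2. Ckmt2, the sarcomeric mitochondrial kinase, was listed at 0 in all 6 epididymal and all 3 inguinal normal-diet libraries, and at 0, 0.0977 and 0.468 FPKM in the inguinal high-fat ones. Neither gene passed the filter of 0.5 FPKM in 3 white libraries, so neither was tested.

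In brown adipocytes Ckmt2 was at 0.551 FPKM in the normal-diet library and 3.80 FPKM in the high-fat one. Ckm, the muscle kinase, was at 3.76 and 11.0 FPKM there and at 0 in every white library but inguinal high-fat replicate 2, at 0.61 FPKM. Ckb thus made up 70.2% of the brown pool on the normal diet, with Ckm at 26.0% and Ckmt2 at 3.81%, and 47.0% on the high-fat diet, with Ckm at 39.4% and Ckmt2 at 13.6%. Skeletal muscle markers moved with these kinases: the 12 markers summed to 133 and 266 FPKM in the brown libraries and to 25.6 to 103 FPKM in white ones. Not every marker set brown apart. Acta1, the skeletal actin, was at 28.3 and 80.6 FPKM in brown and at 1.85 to 28.9 FPKM in white libraries. Its highest white value was in epididymal normal-diet replicate 1, where Ckm and Ckmt2 were at 0. Myl1 was at 57.8 and 71.8 FPKM in brown and at 19.0 to 69.5 FPKM in white libraries. Myoglobin (Mb) was at 6.93 and 25.9 FPKM in brown and 3.58 FPKM in inguinal high-fat replicate 2, the white library with Ckm. In the other white libraries Mb was at most 1.06 FPKM. Ucp1 was also highest in these 3 libraries, at 121 and 503 FPKM in brown and 36.1 FPKM in the inguinal one. The part of muscle RNA and of brown-type cells in the Ckm and Ckmt2 levels was not tested.

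**Figure D3:**
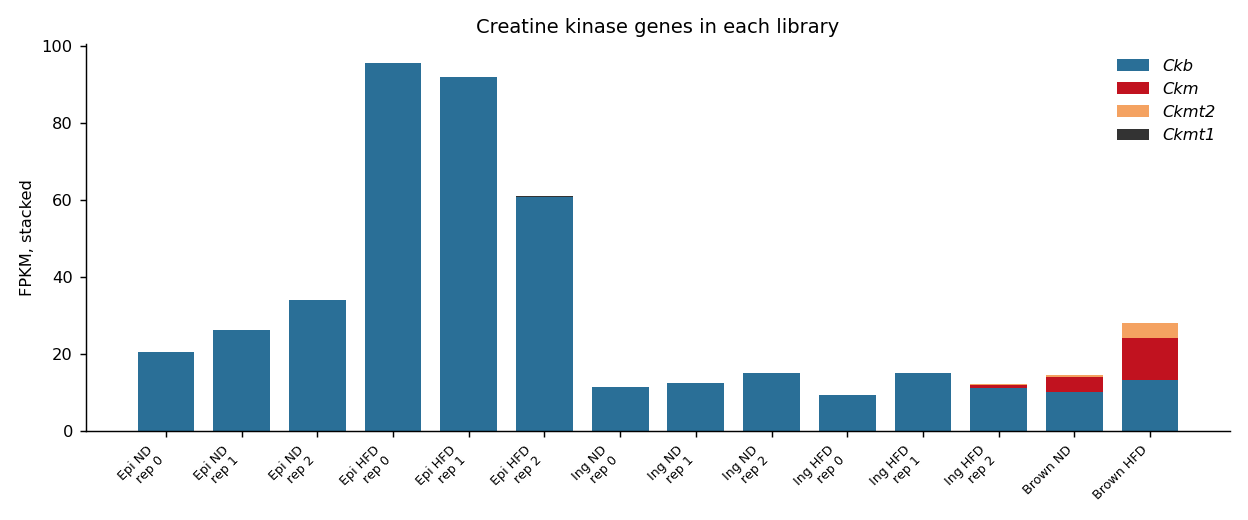
Stacked FPKM of the creatine kinase genes Ckb, Ckm, Ckmt2 and Ckmt1 in each library, from 0. Bars of white libraries are almost all Ckb, and the brown high-fat bar is 47.0% Ckb, 39.4% Ckm and 13.6% Ckmt2.

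Brown adipocytes, with 1 library per diet, were described by fold and not tested. By the rule of at least 2-fold against the mean of the 6 white libraries of the same diet, in both diets, none of the 7 genes with at least 0.5 FPKM in 3 of the 14 libraries was higher in brown (0.649% of all genes were). A gene found in brown alone could not enter, since brown had 2 libraries. Ckmt2 did not enter, and it lay log2 1.07 above the white mean on the normal diet and log2 2.90 above it on the high-fat diet, so that with no filter it met the rule, as 1 of the 9 genes. Its normal-diet value sets 0.551 FPKM against 0 in every white library. That value thus rests on the pseudocount of 0.5 and would be smaller with a larger one. The share of all genes meeting the rule with no filter was not computed. Gatm, listed at 0 in brown on the normal diet, was the 1 gene of the 7 that was lower (5.52% of all genes were). Ckb in brown was log2 -0.83 below the white mean on the normal diet and log2 -1.20 on the high-fat diet, and Slc6a8 was log2 -0.74 and -0.67 below it. Gamt was near the white mean on the normal diet (log2 0.13) and log2 -1.11 on the high-fat diet. Between the brown libraries, Slc6a8 (log2 1.20) and Alpl (log2 1.40) were at least 2-fold higher on the high-fat diet. Gatm, listed at 0 on the normal diet and at 0.648 FPKM on the high-fat diet, also passed, through the pseudocount of 0.5, which makes 3 genes, beside 11.4% of all genes. The count was 2 with a pseudocount of 1 and 4 with 0.1. None was at least 2-fold lower, beside 6.32%. Macrophage marker sums of these libraries were 23.7 and 137 FPKM, so they too were higher on the high-fat diet.

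Alpl, the phosphatase of the cycle, was low in all libraries. It stood at 1.97, 1.50 and 1.49 FPKM in epididymal adipocytes on the normal diet and at 1.98, 1.85 and 2.44 FPKM on the high-fat diet (log2 0.27, SE 0.29, limma adjusted p = 0.59). Inguinal values were 2.65, 1.72 and 4.62 FPKM on the normal diet and 1.25, 1.38 and 1.41 FPKM on the high-fat diet. These groups did not overlap, but the difference of log2 -0.84 (SE 0.29) missed the threshold (adjusted p = 0.063). Without inguinal normal-diet replicate 1 it was log2 -1.12 (adjusted p = 0.0079), and with that replicate alone log2 -0.27 (adjusted p = 0.65). The lymphocyte marker sums of replicates 0, 1 and 2 were 521, 59.4 and 719 FPKM, in the order of their Alpl levels, and the part of lymphocytes was not tested. Phospho1, a phosphatase of phosphocholine, was at 10.4 and 11.9 FPKM in brown and at 0.32 to 4.77 FPKM in white libraries.

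Atp2a2, the SERCA pump of most tissues, was the most even of the genes. Its epididymal values were 32.1, 39.6 and 36.6 FPKM on the normal diet and 56.0, 55.6 and 58.2 FPKM on the high-fat diet, with no overlap (log2 0.65, SE 0.21, limma adjusted p = 0.047). That call was near the threshold: it was lost without any 1 epididymal library or any 1 inguinal high-fat library (adjusted p from 0.065 to 0.134), with no filter (0.0603), with TMM-type factors (0.0615), with quantile normalization (log2 0.37, adjusted p = 0.25) and with equal coding sums (0.0932). Inguinal libraries held 27.5, 45.9 and 24.7 FPKM on the normal diet and 45.5, 49.4 and 44.7 FPKM on the high-fat diet (log2 0.56, SE 0.21, adjusted p = 0.081). Here replicate 1, the library of its group lowest in lymphocyte markers, overlapped the high-fat group. Without it the difference was log2 0.83 (adjusted p = 0.0016), and with it alone log2 0.02 (adjusted p = 0.98). Brown libraries held 29.9 and 33.4 FPKM. Neither the depot differences nor the difference of the diet effects was called for Atp2a2.

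Atp2a2 shared the SERCA pool with Atp2a3, the pump of blood and endothelial cells, while Atp2a1, that of fast muscle, was at 5.04 and 9.47 FPKM in brown and at most 1.12 FPKM in white libraries. Atp2a2 made up 74.3 to 80.5% of the pool in epididymal normal-diet libraries and 57.8 to 66.8% in epididymal high-fat ones. Atp2a3 rose there from 7.80, 13.6 and 9.55 FPKM to 33.3, 27.6 and 42.5 FPKM (log2 1.71, SE 0.49, limma adjusted p = 0.029), a call lost without epididymal normal-diet replicate 0 or 2 or any 1 epididymal high-fat library (adjusted p from 0.0557 to 0.10). In inguinal normal-diet libraries Atp2a3 was at 44.1 and 58.7 FPKM in replicates 0 and 2, those rich in lymphocyte markers, and at 10.4 FPKM in replicate 1. The Atp2a2 share of the pool in that group ran from 29.6 to 81.3%. Inguinal high-fat libraries held Atp2a3 at 28.2, 36.6 and 27.6 FPKM, with lymphocyte marker sums of 4.94 to 11.5 FPKM. The inguinal diet difference was log2 0.02 (SE 0.49, limma adjusted p = 0.98). Atp2a3 made up 37.5 to 42.6% of the pool in inguinal high-fat and 33.1 to 42.2% in epididymal high-fat libraries.

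Ryr2, the cardiac ryanodine receptor, was barely detected. It was at 0.0201, 0.0273 and 0.0243 FPKM in epididymal normal-diet libraries and at 0.541, 0.532 and 0.41 FPKM in high-fat ones. Inguinal values were 0.12, 0.0196 and 0.175 FPKM on the normal diet and 0.462, 0.539 and 0.444 FPKM on the high-fat diet. Epididymal or inguinal, every high-fat library was above every normal-diet one. Ryr2 passed the filter only through 3 high-fat libraries, so it had to differ by diet, and its epididymal value (log2 0.92, SE 0.26, limma adjusted p = 0.028) is a description that depends on the pseudocount. That value missed the threshold without any 1 epididymal library (adjusted p from 0.0561 to 0.101). Ryr1, the skeletal muscle receptor, stayed at 0.0257 to 0.385 FPKM. Sln, the small inhibitor of SERCA in muscle, was at 1.80 and 1.91 FPKM in brown and at 0 in all white libraries but inguinal high-fat replicate 2, at 0.149 FPKM. Pln, the inhibitor of Atp2a2 in heart, was at most 0.354 FPKM.

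**Figure D4:**
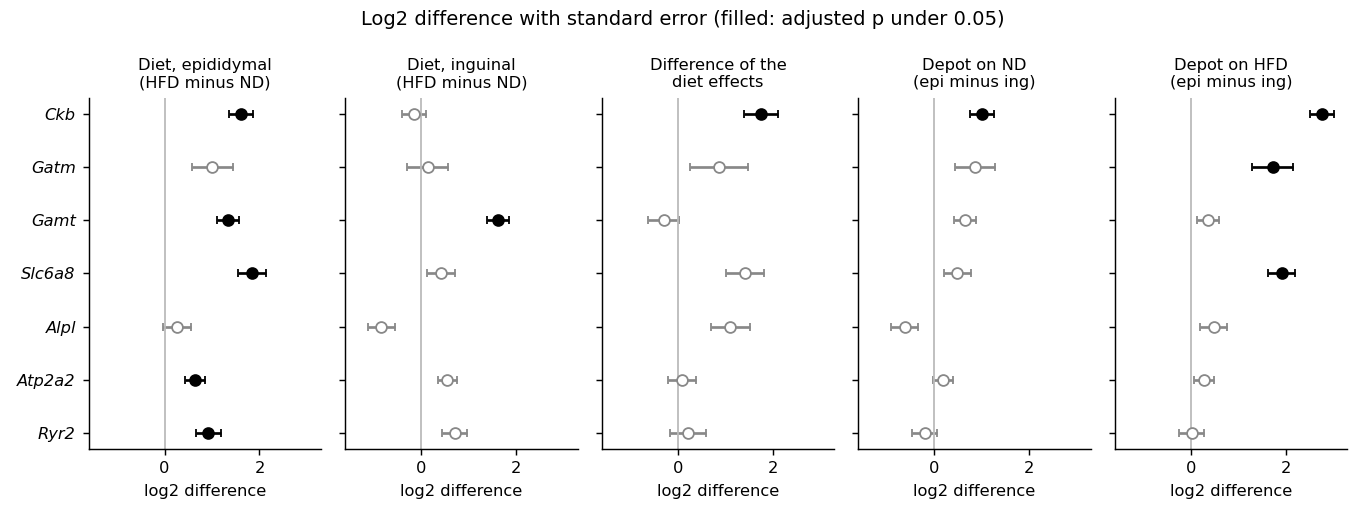
Log2 differences (points, x axis, on log2(FPKM + 0.5)) with their standard errors (bars) for the 7 genes tested in the 5 comparisons of white libraries; filled points have an adjusted p under 0.05. Filled points are Ckb in 4 panels, Gamt in both diet panels, Slc6a8 in 2, Gatm in 1, and Atp2a2 and Ryr2 in the epididymal diet panel alone.

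Ryr2 aside, 4 of the 6 tested genes were called higher in epididymal adipocytes on the high-fat diet, beside 12.2% of all genes, and 5 of 7 with Ryr2, which had to differ. In inguinal adipocytes 1 was. In the comparison of depots, 1 gene was higher in epididymal adipocytes on the normal diet (2.36% of all genes) and 3 on the high-fat diet (7.08%), and 1 had a larger diet effect in epididymal adipocytes (4.80%). No gene of the 7 was called lower, beside 7.35% of all genes in the epididymal and 10.2% in the inguinal diet comparison, 2.42% for the difference of the diet effects, and 4.15% and 3.53% for the depots on the normal and on the high-fat diet. Because the genes were chosen with earlier results of these data known, these counts are a description. All these comparisons share libraries, and the count of 5 in epididymal adipocytes was 3 without any 1 of the epididymal normal-diet libraries or without epididymal high-fat replicate 0 or 1.

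The wider creatine pathway list held 15 genes, 11 of them tested, and included Ckb, Gatm, Gamt, Slc6a8 and Alpl. In epididymal adipocytes 4 rose, none fell and 7 were called neither way on the high-fat diet, and in inguinal adipocytes 3 rose, none fell and 8 did not pass. Over all genes 12.2% rose and 7.35% fell in epididymal adipocytes, and 9.3% and 10.2% in inguinal ones. The median log2 differences were 0.69 and 0.48, against 0.07 and -0.01 over all genes. With the inguinal normal-diet group reduced to replicate 1, Gamt and Slc16a12 still had higher estimates in inguinal adipocytes on the high-fat diet. Replicate 1 was the lowest of its group in lymphocyte markers, but its sum of 59.4 FPKM was above the 11.7 FPKM or less of other groups. That fit rests on a single library, which also differed from replicates 0 and 2 in other marker sums. Slc16a12, a transporter that lets creatine out of cells, rose from 2.89, 5.38 and 3.65 FPKM to 20.0, 18.7 and 15.2 FPKM in inguinal adipocytes (log2 2.07, SE 0.22, limma adjusted p = 0.0002). In epididymal adipocytes it went from 7.92, 8.90 and 10.7 FPKM to 16.6, 14.5 and 15.4 FPKM (log2 0.73, SE 0.22, limma adjusted p = 0.034). So the exporter had its larger diet effect in the inguinal depot, with a difference of log2 -1.34 (SE 0.31, limma adjusted p = 0.025), and the importer Slc6a8 had its larger estimate in the epididymal one. The epididymal call of Slc16a12 was lost without any 1 of 6 libraries (epididymal normal-diet 0 and 1, all epididymal high-fat ones, inguinal high-fat 1; adjusted p from 0.052 to 0.119). The call of its difference was likewise lost without any 1 of 6 (epididymal normal-diet 2, all epididymal high-fat ones, inguinal high-fat 0 and 1; 0.0528 to 0.0737), and at log2 -0.91 with the inguinal normal-diet group reduced to replicate 1 (0.107).

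On the normal diet Slc16a12 was also higher in epididymal than in inguinal adipocytes (log2 1.14, limma adjusted p = 0.013). This call was lost without epididymal normal-diet replicate 2 (0.0594) and with only the groups compared in the fit. The difference was log2 0.71 with the inguinal normal-diet group reduced to replicate 1. The adenine nucleotide carriers, which exchange ATP and ADP across the mitochondrial membrane, differed little: Slc25a4 rose in inguinal adipocytes (log2 0.74, SE 0.17, limma adjusted p = 0.011), a call lost with the normal-diet group reduced to replicate 1 (0.183). Slc25a5 was higher in epididymal ones on the high-fat diet (log2 0.73, SE 0.21, adjusted p = 0.044), a call lost in every scaling alternative and without any 1 of 8 libraries (epididymal normal-diet 1 and 2 and all high-fat ones; 0.0583 to 0.164).

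Of 26 genes of calcium pumps and release, 17 were tested. In epididymal adipocytes 6 rose, 1 fell and 10 did not pass on the high-fat diet (median log2 0.37), and in inguinal adipocytes 3 rose, 1 fell and 13 did not pass (median log2 0.02). Of the 6, Ryr2 and Trdn passed the filter only through high-fat libraries, so they had to differ. Over the 13 genes with at least 0.5 FPKM in 3 libraries of the diet where they were lower, 4 rose and 1 fell, beside 12.2% and 7.35% of all genes. The inguinal counts stand beside 9.3% and 10.2% of all genes and were 2 and 2 with the normal-diet group reduced to replicate 1, where Casq1 (log2 1.51, limma adjusted p = 0.0383) and Itpr3 (log2 -1.50, adjusted p = 0.0229) kept their calls and Casq2 (0.221) and Tmem38b (0.059) did not. Casq1, a calcium-binding protein of the reticulum of muscle, rose in both: from 0.298, 0.941 and 0.794 FPKM to 7.17, 5.20 and 5.86 FPKM in the epididymal libraries (log2 2.52, SE 0.41, limma adjusted p = 0.0012), and from 0.221, 1.27 and 0 FPKM to 5.42, 4.55 and 3.75 FPKM in inguinal ones (log2 2.55, SE 0.41, limma adjusted p = 0.002). The sum of 12 skeletal muscle markers also rose in inguinal adipocytes, from 25.6 to 54.0 FPKM on the normal diet to 73.4 to 103 FPKM on the high-fat diet. Most of it was Myl1 (19.3 to 48.1 and 59.5 to 69.5 FPKM). There 3 of the 7 tested (Acta1, Myl1 and Pvalb) were called higher, beside 9.3% of all genes. Mylpf (log2 -0.86) and Tnnt3 (log2 -0.70) had lower estimates and were not called. In epididymal adipocytes the marker sums overlapped (28.4 to 65.2 and 46.8 to 66.0 FPKM) and 1 of the 7, Pvalb, was called higher, beside 12.2% of all genes. Pvalb could not pass the filter without its high-fat libraries, so it had to be higher on that diet. The part of muscle RNA in the Casq1 values was not tested. Tmem38b, a potassium channel of the reticulum that balances calcium release, rose in both as well (log2 1.04 and 1.12, limma adjusted p = 0.0023 and 0.0024). Trdn, triadin, which anchors calsequestrin to the release channel, went from between 0.0255 and 0.0395 FPKM to between 0.861 and 1.61 FPKM in epididymal adipocytes and stayed at or below 0.305 FPKM in inguinal ones. It passed the filter only through the 3 epididymal high-fat libraries and so had to be higher there, and its differences are a description: log2 1.58 for epididymal diet (limma adjusted p = 0.0036) and log2 1.64 for the difference of the diet effects (adjusted p = 0.043, and 0.0583 with the replicate block).

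Casq2, the cardiac form of calsequestrin and another gene of striated muscle, went from between 0.615 and 0.878 FPKM to between 0.0834 and 0.175 FPKM in the epididymal libraries (log2 -1.01, limma adjusted p = 0.065) and rose from between 0 and 0.318 FPKM to between 0.496 and 1.72 FPKM in inguinal ones (log2 1.38, limma adjusted p = 0.018). The difference of its diet effects was log2 -2.39 (SE 0.50, limma adjusted p = 0.016), and on the high-fat diet it was lower in epididymal adipocytes (log2 -1.47, adjusted p = 0.02). Casq2 reached the filter level of 0.5 FPKM only in epididymal normal-diet and inguinal high-fat libraries. Both groups enter the difference of diet effects with a minus sign. A negative difference was therefore a condition of being tested, and its value is a description. Itpr3, an inositol trisphosphate receptor, fell in epididymal (log2 -1.26, limma adjusted p = 0.029) and inguinal adipocytes (log2 -2.46, limma adjusted p = 0.0012). It stood at 9.40 and 11.3 FPKM in the inguinal normal-diet replicates 0 and 2 and at 3.49 FPKM in replicate 1. On the normal diet Itpr3 was lower in epididymal adipocytes (log2 -1.49, limma adjusted p = 0.033), a difference of log2 -0.535 with the inguinal group reduced to replicate 1. Fkbp1b, a ryanodine receptor stabiliser, was higher in epididymal adipocytes on the high-fat diet (log2 1.15, limma adjusted p = 0.027). Several of these calls depended on single libraries: Itpr3 in epididymal adipocytes was lost without any 1 epididymal library (adjusted p from 0.0528 to 0.0926), the Itpr3 depot call without any 1 of 7 libraries (0.0503 to 0.114), Fkbp1b without any 1 epididymal high-fat library or inguinal high-fat replicate 0 (0.0639 to 0.121), and the Trdn difference without any 1 of 11, all but inguinal normal-diet replicate 1 (0.0532 to 0.126). The inguinal Casq2 call was lost without inguinal normal-diet replicate 2 or inguinal high-fat replicate 0 or 1 (0.0566 to 0.0779), and its depot call without epididymal or inguinal high-fat replicate 0 or 1 (0.0734 to 0.0846). The Trdn depot call on the high-fat diet (log2 1.50, adjusted p = 0.0098) was lost without epididymal high-fat replicate 1 (0.0553).

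All 19 genes of calcium entry and mitochondrial calcium were tested. In epididymal adipocytes 3 rose and none fell, and in inguinal ones 3 rose and 2 fell, beside 12.2% higher and 7.35% lower of all genes in epididymal and 9.3% and 10.2% in inguinal adipocytes. The medians were log2 0.31 and 0.25. Letm1, a mitochondrial cation exchanger, rose in both (log2 0.67 and 0.84, limma adjusted p = 0.019 and 0.0077). Mcub, the inhibitory subunit of the mitochondrial calcium uniporter, rose in epididymal adipocytes from 4.66, 6.13 and 10.4 FPKM to 20.2, 14.8 and 14.03 FPKM (log2 1.21, limma adjusted p = 0.031), as did Slc8b1, the mitochondrial sodium-calcium exchanger (log2 0.82, adjusted p = 0.048). Slc8a1, the sodium-calcium exchanger of the plasma membrane (log2 1.74, limma adjusted p = 0.0038), and Atp2b4, a plasma membrane calcium pump (log2 0.99, adjusted p = 0.041), rose in inguinal adipocytes. Orai2, a store-operated calcium channel, fell there from 9.88, 1.79 and 19.6 FPKM to 0.177 to 0.622 FPKM (log2 -3.07, limma adjusted p = 0.0051), with the highest values again in replicates 0 and 2, and Orai3 fell too (log2 -0.88, adjusted p = 0.0077). With the inguinal normal-diet group reduced to replicate 1, none of these 5 inguinal calls was left: the differences were log2 -1.30 for Orai2 (adjusted p = 0.0739), log2 -0.84 for Orai3 (0.0714), log2 0.30 for Atp2b4 (0.588), log2 0.93 for Slc8a1 (0.0664) and log2 0.76 for Letm1 (0.104).

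Between depots, Vdac3, a pore of the outer mitochondrial membrane, was higher in epididymal adipocytes on both diets (log2 0.87 and 1.25, limma adjusted p = 0.048 and 0.0056), and Mcub on the high-fat diet (log2 1.41, adjusted p = 0.025). On the normal diet Orai2 was lower in epididymal adipocytes (log2 -2.51, limma adjusted p = 0.031) but was at log2 -0.74 (adjusted p = 0.37) with the inguinal group reduced to replicate 1. Calls of Letm1 in epididymal adipocytes were lost without epididymal normal-diet replicate 0 or high-fat replicate 1 or 2 (adjusted p from 0.0605 to 0.0781). Those of Mcub were lost without any 1 of 5 libraries in either comparison (all epididymal high-fat ones, with epididymal normal-diet 0 and 1 or with inguinal high-fat 0 and 2; 0.0526 to 0.124), that of Slc8b1 without any 1 epididymal or inguinal high-fat library (0.0513 to 0.161), and that of Atp2b4 without any 1 of 8 (epididymal normal-diet 1, epididymal high-fat 0 and 1, inguinal normal-diet 0 and 2, all inguinal high-fat ones; 0.0554 to 0.125). The normal-diet calls of Vdac3 and Orai2 were lost without any 1 of 11 (all but inguinal normal-diet replicate 0; 0.0589 to 0.16) and any 1 of 6 libraries (all epididymal normal-diet ones, epididymal high-fat 0, inguinal normal-diet 0 and 2; 0.0507 to 0.103).

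Upstream of the creatine cycle in brown fat, signals through alpha-1 adrenergic receptors and Gq act on it, and estrogen-related receptors control genes of oxidative metabolism. Of 12 such genes 10 were tested, and 3 were called higher and none lower in each depot (medians log2 -0.12 and 0.16), beside 12.2% of all genes higher in epididymal and 9.3% in inguinal adipocytes. Without Esrrg, which passed the filter only through high-fat libraries, 2 of 9 were called higher in each. Adra1a, an alpha-1 adrenergic receptor, rose from 1.48, 2.22 and 1.85 FPKM to 5.77, 4.85 and 6.53 FPKM in the epididymal libraries (log2 1.41, SE 0.30, limma adjusted p = 0.006) and from 1.62, 3.78 and 1.32 FPKM to 6.49, 7.64 and 7.86 FPKM in inguinal ones (log2 1.62, SE 0.30, limma adjusted p = 0.004). Esrrg, an estrogen-related receptor, was at most 0.242 FPKM in normal-diet and between 0.767 and 3.34 FPKM in high-fat libraries of both depots, so it had to differ by diet to be tested at all (log2 1.15 and 1.86, limma adjusted p = 0.033 and 0.0038, as a description). Esrra rose in epididymal adipocytes (log2 0.92, adjusted p = 0.016). Gnaq, the Gq alpha subunit, rose in inguinal ones (log2 0.73, adjusted p = 0.011) and on the normal diet was higher in epididymal adipocytes (log2 0.79, adjusted p = 0.019). The epididymal Esrrg call was lost without any 1 epididymal library (limma adjusted p from 0.0594 to 0.116) and that of Esrra without epididymal normal-diet replicate 0 or high-fat replicate 0 or 2 (0.0528 to 0.0685). The inguinal Gnaq call was lost without inguinal high-fat replicate 1 (0.0536) and its depot call without replicate 2 of either normal-diet group (0.0617 to 0.0779). The Gnaq depot difference was log2 0.70 with the inguinal normal-diet group reduced to replicate 1. With the inguinal normal-diet group reduced to replicate 1, no inguinal call of this list was left: the differences were log2 0.87 for Adra1a (0.0933), log2 1.66 for Esrrg (0.0571) and log2 0.63 for Gnaq (0.116).

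For each of the 6 genes with a mean of at least 1 FPKM over the white libraries, the genes most like it were ranked by the Pearson correlation of log2 values over these 12 libraries, among 8359 genes; the libraries share 4 groups, so group differences set most of each value. Ckb was most like M6pr (r = 0.966), a sorting receptor for lysosomal enzymes, followed by Sdcbp (0.959) and Eif4a1 (0.954). Slc6a8 was most like Mocos (0.980), Vat1 (0.974) and the lysosomal hexosaminidase gene Hexa (0.971). Gatm was most like Cd14 (0.934), Plxnb2 (0.929) and Lyz2 (0.922), of which Cd14 and Lyz2 are among the macrophage markers above. Gamt was most like Slc48a1 (0.980), Fads3 (0.976) and Ube3c (0.976). None of the genes named here for Ckb, Slc6a8 and Gamt is on the marker lists. Atp2a2 was most like Ttyh2 (0.987), Lrp1 (0.986) and Hsd17b12 (0.986), and Alpl like Slc25a12 (0.939), Prmt3 (0.913) and Ptpn18 (0.913). Over all 14 libraries the first-ranked gene was Sdcbp for Ckb (0.961), Plxnb2 for Gatm (0.955), Slc48a1 for Gamt (0.980), Il1rn for Slc6a8 (0.955), Pitpnc1 for Alpl (0.874) and Col5a1 for Atp2a2 (0.981).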

How the data were processed

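Poly(A) RNA of isolated adipocytes was sequenced in 14 libraries. The deposited values are FPKM per gene; per the submitters' processing notes, TopHat2 2.0.9 (mm10) and Cuffdiff 2.1.1 were used. Annotation, strand setting and scaling between libraries are not given in the sources used here. Low FPKM did not fall on whole-read steps (at most 5.62% of low genes shared a ratio within 1%), so depth is unknown, no counting interval is given, and precision rests on replicate spread. A gene listed at 0 may be a failed estimate. Replicate libraries are separate pools of mice, per the labels.

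Groups came from sample titles. Symbols were matched to 36638 of 38553 identifiers, and coordinates are RefSeq's on GRCm38.p6. White libraries were tested with limma 3.58.1 (R 4.3.3, trended eBayes) on log2(FPKM + 0.5), 4 group means, 8 residual degrees of freedom, two-sided, over genes with at least 0.5 FPKM in at least 3 of 12 libraries. Brown libraries were described by fold. On simulated data the fit was checked for recovery of known changes. The members and gene lists were chosen with earlier results of these data known. All 9 members are named, with pathway genes called in any comparison, up to 4 each way per list, plus Ckm, Atp2a1, Ryr1, Sln, Pln and Ucp1. Alternatives changed the pseudocount (0.1, 1), filter (none, 2 FPKM), scaling, groups fitted, weights, replicate block and libraries. Same-numbered libraries deviated together between depots on the high-fat diet (correlations 0.184, 0.111 and 0.146). They also did so between diets in epididymal adipocytes (0.18, 0.082 and 0.162), where the mice differ. The values therefore do not establish that numbers pair samples.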

Additional observations from a re-analysis of the deposited data

Results flagged for a closer look

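Of the genes named here, 4 had diet effects that differed between the white depots by the test of that difference (limma on log2(FPKM + 0.5), Benjamini-Hochberg adjusted p, epididymal minus inguinal). Ckb had the larger effect in epididymal adipocytes, by log2 1.76 (SE 0.35, adjusted p = 0.013), and so had triadin (Trdn), by log2 1.64 (SE 0.44, adjusted p = 0.043; 0.0583 with the replicate block). Trdn passed the filter on low values only through the epididymal high-fat libraries, so its larger effect there was a condition of being tested. The creatine exporter Slc16a12 had the smaller effect there, by log2 -1.34 (SE 0.31, adjusted p = 0.025). Casq2 had estimates of opposite sign, with a difference of log2 -2.39 (SE 0.50, adjusted p = 0.016). Casq2 reached 0.5 FPKM only in epididymal normal-diet and inguinal high-fat libraries, so a negative difference was a condition of being tested. None of the 4 calls was left with the inguinal normal-diet group reduced to replicate 1 (adjusted p = 0.0517, 0.0961, 0.107 and 0.0636).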

How the results depend on the processing

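The number of the 7 tested genes called was 5, 1, 1, 1 and 3 for the diet effect in epididymal adipocytes, the diet effect in inguinal adipocytes, the difference of these effects, and the depot difference on the normal and on the high-fat diet. The last count did not move by over 1.5 times, but its calls turned from 3 higher to 2 lower (Gamt and Atp2a2) with equal sums over genes not on the mitochondrial genome, where the 1 normal-diet depot call was lower too (Alpl, log2 -1.63). The replicate block left all 5 counts at 5, 1, 1, 1 and 3 and lost 2 calls of other named genes, the Trdn difference of diet effects (limma adjusted p = 0.0583) and Vdac3 on the normal diet (0.0602); it changed no other call of a named gene. Of the genes of calcium entry and mitochondrial calcium it called 5 and not 3 in the epididymal diet comparison and 1 and not 2 between depots on the normal diet. Same-numbered libraries correlated at 0.082 to 0.18 for epididymal diet, 0.007 to 0.272 for inguinal diet and 0.029 to 0.133 for normal-diet depots. In the inguinal diet comparison replicate 2 correlated better with another number (0.107) than with its own (0.007). Whether the numbers pair samples is not known from these values.

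Inguinal diet calls were 2 with no filter, 2 with TMM-type factors and 3 with array weights (1 of them lower, Alpl). Calls of the difference of diet effects were 2 with a pseudocount of 1, 2 with a filter of 2 FPKM and 3 with array weights. Normal-diet depot calls were 0 with no filter, 2 with quantile normalization, 0 with only the groups compared and 0 with the inguinal normal-diet group reduced to replicate 1. Without each library in turn the counts ran from 3 to 5 (epididymal diet), 1 to 4 (inguinal diet, 4 without inguinal normal-diet replicate 1, 1 of them lower), 1 to 3 (difference, 3 without that replicate and 2 without replicate 2) and 0 to 4 (normal-diet depots, 4 without inguinal normal-diet replicate 1, 1 of them lower, and 0 without epididymal normal-diet 1 or 2, epididymal high-fat 0 or 1, inguinal normal-diet 0 or 2 or inguinal high-fat 2). The cause was not tested. Against the highest white library, 3 genes and not 1 were at least 2-fold lower in brown.

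Scaling to equal sums over genes not on the mitochondrial genome was set largely by 1 unnamed feature, ENSMUSG00000093077, which held 38.0% to 91.2% of the sum in every library but inguinal normal-diet replicates 1 and 2, where immunoglobulin or T cell receptor J segments led. Under it the epididymal diet count was 0, the count for the difference 0, and the brown count higher on the high-fat diet 1. It turned the inguinal diet value of Ckb to 0.43 (log2, as all values here) and the difference of diet effects of Atp2a2 to -0.45 and of Ryr2 to -0.64. It turned normal-diet depot values of Ckb to -0.30, Gatm to -0.31, Gamt to -0.65, Slc6a8 to -0.77, Atp2a2 to -1.13, Gnaq to -0.52, Slc16a12 to -0.11 and Vdac3 to -0.45. It turned high-fat depot values of Gamt to -1.50, Alpl to -0.98, Atp2a2 to -1.58, Ryr2 to -0.95, Fkbp1b to -0.063, Mcub to -0.37, Slc25a5 to -1.15 and Vdac3 to -0.59. Equal sums over nuclear protein-coding genes, added after seeing the data, moved the median of all genes for the high-fat depot comparison from 0.04 to -0.16, and the epididymal diet split from 1818 higher and 1100 lower to 1395 and 1580 (1536 and 1346 with quantile normalization).

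The other reversals were of values not called. The difference of diet effects of Atp2a2 was -0.032 with TMM-type factors, -0.13 with quantile normalization, -0.12 with array weights and -0.049 with coding sums, and the high-fat depot value of Ryr2 was -0.022 with TMM-type factors and -0.095 with coding sums. With array weights the inguinal diet values were 0.015 for Ckb and -0.071 for Gatm. With the inguinal normal-diet group reduced to replicate 1, assumed to vary like the other groups and added after seeing the data, Slc6a8 was -0.22 for inguinal diet and -0.15 for normal-diet depots, Atp2a2 -0.35 and Ryr2 0.012 for the latter; of the 15 named genes called in the inguinal diet comparison 4 kept and 11 lost their call. With only the groups compared, 6 kept and 9 lost it, and all 6 normal-diet depot calls were lost; the difference of diet effects needs all 4 groups and was not run that way. Without each library in turn, reversing values ran from -0.33 to 0.005 (Ckb) and -0.10 to 0.50 (Gatm) for inguinal diet, -0.18 to 0.26 for the Atp2a2 difference and -0.018 to 0.08 for high-fat depots of Ryr2. The cause of these was not tested. The FPKM files give no depth, so genes near 0, among them Ckmt1, Ckmt2 and Ryr2, have no counting error.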

Other observations

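Pvalb, parvalbumin, a calcium buffer of fast muscle fibres, was, like Casq1, higher in epididymal and inguinal adipocytes of mice fed the high-fat diet. It was at 0.0443, 0.383 and 0 FPKM in epididymal normal-diet libraries and at 7.30, 8.36 and 7.13 FPKM in high-fat ones (log2 3.70, SE 0.32, limma adjusted p = 1.8e-05). Inguinal values were 0.339, 0.591 and 0 FPKM on the normal diet and 2.87, 3.24 and 3.56 FPKM on the high-fat diet (log2 2.27, SE 0.32, limma adjusted p = 0.001). Only 1 normal-diet library reached the filter of 0.5 FPKM, so Pvalb was tested through its high-fat libraries. It thus had to be higher on the high-fat diet, and its diet differences are a description. Of the 6 other skeletal muscle markers tested, none was called in the epididymal diet comparison and 2 were called higher in the inguinal one, Acta1 (log2 1.65, limma adjusted p = 0.042) and Myl1, a fast myosin light chain (log2 1.09, adjusted p = 0.035). In that comparison 9.3% of all genes were called higher, and Mylpf (log2 -0.86) and Tnnt3 (log2 -0.70) had lower estimates without a call. The part of muscle RNA was not tested. Brown libraries held Pvalb at 2.05 and 11.5 FPKM, with Tnnt3 at 7.72 and 16.9 FPKM.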
